A study of Drosophila melanogaster x Drosophila simulans and Drosophila melanogaster and Drosophila simulans with 186 samples.

Results

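The levels and the anterior-posterior patterns of mRNA in a *D. melanogaster* embryo were set against those in an embryo of its sister species *D. simulans*. All genes with a mean of at least 5 FPKM over the slices of either species were taken, which were 5659 of the 13577 genes in the joint expression table, whether or not they were biased in hybrids. Of these, 4686 reached 5 FPKM in both species, 389 in *D. melanogaster* only and 584 in *D. simulans* only. FPKM is a fragment count per transcript length and per library size, so levels can be set side by side between genes and slices.

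The series holds 186 cryoslices, each 1 library, from 7 embryos fixed in methanol at blastoderm cycle 14C after growth at 25C. The parental *D. melanogaster* embryo came from the inbred line DGRP-340 and is listed in the supplement as female, and the parental *D. simulans* embryo came from w501 and is listed as male. Each was cut into 27 slices, of which 26 and 25 had values. The other embryos were F1 hybrids of these lines, 3 from a *D. melanogaster* mother (mel-mother hybrids) and 2 from a *D. simulans* mother (sim-mother hybrids), and they serve here as a measure of how much embryos differ and as samples in which tests over embryos can be made. There was 1 embryo per species, and its slices do not replicate it. No test was therefore made between the parents, and species, strain, sex, exact stage and embryo cannot be told apart.

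At this stage the *Drosophila* embryo is a single layer of nuclei around which cell membranes are growing in. Its mRNA is a mixture of transcripts that the mother loaded into the egg and of transcripts from the embryo's own genome, which has just become broadly active. Position along the anterior-posterior axis is set by a cascade in which maternal gradients direct the gap genes, gap genes direct the pair-rule genes, and these direct the segment polarity and Hox genes. Maternal transcripts carry only the mother's alleles, so a hybrid resembles its mother's species in genes that are mainly maternal.

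The slices matched their labels. Alleles assigned to *D. simulans* made up 0.714 to 0.859% of the allele counts in slices of the *D. melanogaster* embryo and 98.7 to 99.3% in those of the *D. simulans* embryo, and the allele counts per slice had a median of 1763896.5 (1133336 to 2625406) and of 1733271 (985915 to 2334136). Libraries of both embryos were made in the batches numbered 2 and 3, with 16 and 10 slices of *D. melanogaster* and 14 and 11 of *D. simulans*. All 15 follicle cell and eggshell markers were under 1 FPKM in both parents. Mel-mother hybrid replicate 2 stood apart here, with a summed level of 51.2 FPKM for these markers, against 0.875 to 1.80 in the other 4 hybrids.

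How far the species differ in level was asked first. A total of 1806 genes differed at least 2-fold on the log2(FPKM + 1) scale, which is 31.9% of the genes, and 560 (9.9%) differed at least 4-fold. At least 2-fold higher in *D. melanogaster* were 773 genes (13.7%), and 1033 (18.3%) were at least 2-fold higher in *D. simulans*. Past 4-fold the counts were 275 (4.86%) and 285 (5.04%). Between hybrid embryos of the same cross, the share past 2-fold was 7.12, 5.28 and 13.2% in the mel-mother pairs and 6.29% in the sim-mother pair, and the share past 4-fold was 0.212, 0.23, 0.76 and 0.3%. The genes were taken by the higher parental mean, which raises the share between the parents but not that in the hybrids. With at least 5 FPKM in both species, 22.9% of 4686 genes passed 2-fold between the parents. The hybrid pairs were not recounted on those genes. The median absolute log2 difference was 0.63 between the parents and 0.29 to 0.41 in the hybrid pairs. For 2691 genes (47.6%) the parents differed by more than any of the 4 hybrid pairs did, and 1648 (29.1%) also passed 2-fold. A part of the genes would meet this without any species difference, and the mel-mother pairs share embryos. How large that part is was not computed. Across genes, which are not independent replicates, Pearson's r of log10(FPKM + 1) was 0.804 between the parents and 0.943 to 0.970 in the pairs.

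**Figure D1:**
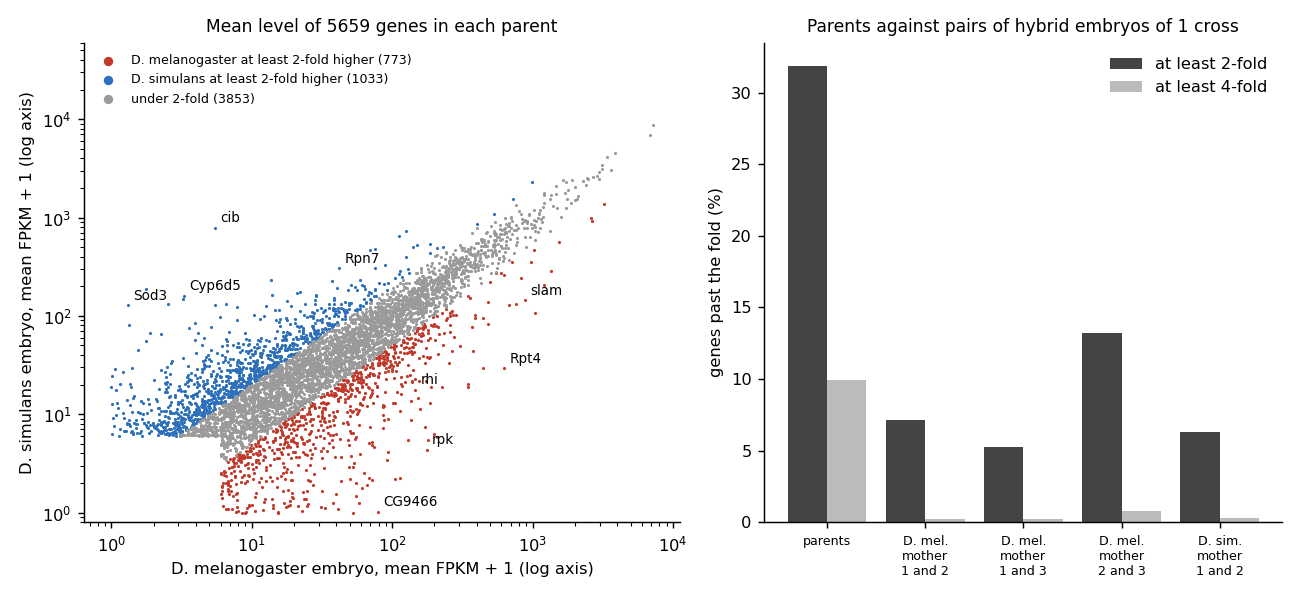
Left, mean FPKM + 1 of each gene over the slices of the D. melanogaster embryo (x axis) and of the D. simulans embryo (y axis), both on log axes, with genes at least 2-fold apart in colour. Right, the percentage of genes past 2-fold and 4-fold between the parents and in the 4 pairs of hybrid embryos of the same cross. The share past 2-fold is 31.9% between the parents and at most 13.2% in a hybrid pair. The genes were taken by the higher parental mean, and with at least 5 FPKM in both parents the parental share is 22.9%.

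The difference ran along the whole embryo for most genes. Of the 1806 genes past 2-fold, 1780 had the same sign in the anterior, middle and posterior sections of the embryo (3 equal parts of its length), and 1378 genes passed 2-fold in the same direction in all 3 sections. From anterior to posterior, the sections held 8, 9 and 9 slices with values in *D. melanogaster* and 9, 9 and 7 in *D. simulans*. The slice ranges of the 2 embryos did not overlap for 993 genes (17.5%), 460 (8.13%) with *D. melanogaster* higher and 533 (9.42%) with *D. simulans* higher. The share past 2-fold was lower among abundant genes, between the parents as in the hybrid pairs. Among the 639 genes with at least 200 FPKM in the higher species 14.2% passed 2-fold, against 38.5% of the 811 genes between 5 and 10 FPKM, and in the hybrid pairs the shares were 2.66 to 4.23% and 5.92 to 15.2%. The most abundant transcripts were nearly equal. CG13427 had a mean of 7203 FPKM in *D. melanogaster* and 8664 FPKM in *D. simulans*, and Ef1alpha48D, which encodes the translation elongation factor that brings tRNAs to the ribosome, had 6831 and 6909 FPKM. The tubulin genes alphaTub84B (log2 ratio of *D. melanogaster* to *D. simulans* -0.24) and betaTub56D (-0.29) were similarly close.

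The 12 genes furthest apart in each direction did not overlap in any slice. On the *D. melanogaster* side, CG9466 (2L:8772946-8776263 in release 5 of the *D. melanogaster* genome, which all positions refer to) ranged from 41.7 to 107.2 FPKM over the *D. melanogaster* slices, with a median of 78.5, and from 0 to 0.47 FPKM over the *D. simulans* slices. CG13532 (2R:18758713-18761950) had a mean of 51.8 FPKM and was listed at 0 in every *D. simulans* slice. tej (2R:10187608-10189858), a germline gene of the piRNA pathway, had 37.9 to 85.1 FPKM in *D. melanogaster* (median 67.2) and at most 1.83 FPKM in *D. simulans*. rpk (3R:471703-474606), which encodes a sodium channel of the DEG/ENaC family, had means of 174.8 and 3.35 FPKM, a log2 ratio of 5.34 with 1 FPKM added to each mean. Qtzl (2L:11995740-11996723), a young chimeric gene known from *D. melanogaster*, had means of 39.9 and 0.084 FPKM.

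On the *D. simulans* side, cib (X:4000146-4005014), which encodes the actin-binding protein ciboulot, had 0.63 to 19.6 FPKM over the *D. melanogaster* slices (median 3.27) and 561.6 to 1262 FPKM over the *D. simulans* slices (median 724.5). Its log2 ratio of -7.16 was the lowest of the 5659 genes. Sod3 (2R:7267852-7271619), an extracellular superoxide dismutase, had at most 1.9 FPKM in *D. melanogaster* and 61.5 to 168.1 FPKM in *D. simulans*. Arc1 (2R:10245432-10247802), a capsid-forming relative of retrotransposon Gag, had means of 2.22 and 148.3 FPKM. CG16758 (3L:2499372-2503606) had means of 0.766 and 186 FPKM. The gene models are those of *D. melanogaster* and reads of both species were mapped to its genome. The part of mapping in single genes was not tested.

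Neighbouring or overlapping gene models limit some of these values. CG1667 (2R:5730191-5733017) had means of 104.6 and 1.18 FPKM, while its neighbour CG1665 (2R:5727281-5728668) had 3.17 and 66 FPKM in the opposite direction. Of 863 overlapping pairs among the genes, 42 had both genes past 2-fold in opposite directions and 45 in the same direction. Of the genes furthest apart, CG12721, CG1667, CG6321, CG17919, Cyp6d5, rev7 and inaF-D are overlapped by another gene model. Without any gene that overlaps another model, 31.4% of 3199 genes passed 2-fold.

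Whether hybrids carry the parental difference was asked with the 5 hybrid embryos, which played no part in choosing the genes. Levels in mel-mother hybrids were set against those in sim-mother hybrids (limma, Benjamini-Hochberg adjusted p under 0.05 over 5659 genes). Of all genes, 490 (8.66%) were higher and 567 (10%) lower in mel-mother hybrids. Of the 773 genes at least 2-fold higher in the *D. melanogaster* parent, 406 (52.5%) were also higher in mel-mother hybrids and 4 were lower. Of the 1033 genes at least 2-fold higher in the *D. simulans* parent, 456 (44.1%) were lower in mel-mother hybrids and 0 were higher, by the adjusted p of limma and also at an unadjusted p under 0.05. Past 4-fold, 206 of 275 genes (74.9%) and 192 of 285 genes (67.4%) were called in the parental direction. Among the 3853 genes under 2-fold, 182 (4.72%) were called in the parental direction and 9 in the other. These counts moved with 1 embryo. Without sim-mother replicate 1 or 2, 251 or 248 of the 773 genes and 254 or 244 of the 1033 genes were called.

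All 12 of the genes furthest apart on the *D. melanogaster* side and 11 of the 12 on the *D. simulans* side were called in the parental direction. cib had 5.40, 5.96 and 8.09 FPKM in the mel-mother hybrids and 339.8 and 776 FPKM in sim-mother hybrids (limma log2 -6.12 ± 0.37 SE, adjusted p = 8.2e-06). The hybrid values thus lay beside those of the mother's species. tej had 70.6, 37.4 and 91 FPKM in mel-mother hybrids and 0.615 and 0.746 FPKM in sim-mother hybrids. CG9466 varied more among the mel-mother hybrids, at 15.7, 31.5 and 68.8 FPKM, against 0.353 and 0.347 FPKM in sim-mother hybrids. Qtzl had the smallest difference by mother of the 12 genes on the *D. melanogaster* side, at 36.2, 16.8 and 35.9 FPKM against 6.85 and 7.4 FPKM (limma log2 1.84 ± 0.36 SE, adjusted p = 0.00574), while the *D. simulans* parent had 0.084 FPKM.

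**Figure D2:**
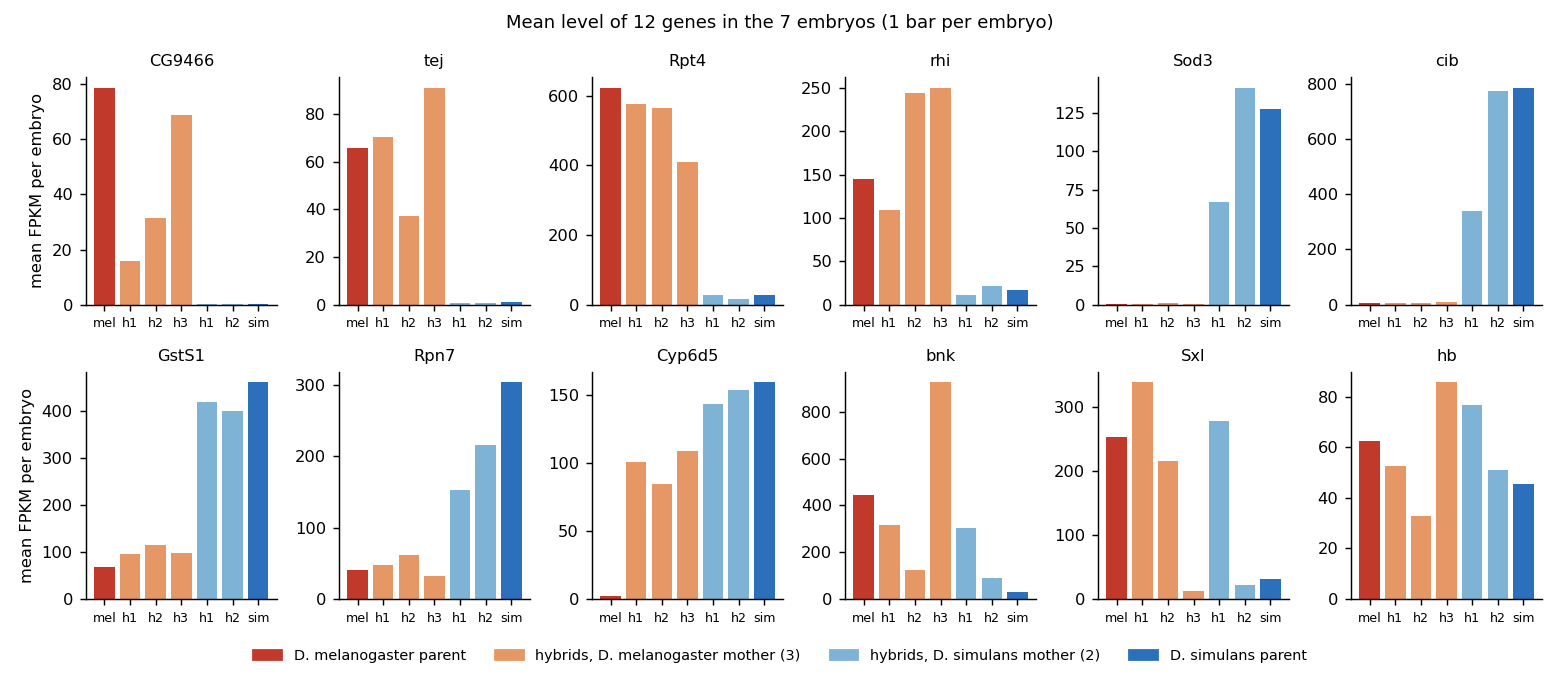
Mean FPKM of 12 genes in each of the 7 embryos, 1 bar per embryo: the D. melanogaster parent (mel), the mel-mother hybrids (orange, h1 to h3), the sim-mother hybrids (light blue, h1 and h2) and the D. simulans parent (sim). Genes such as tej, Rpt4, Sod3 and cib follow the mother, Cyp6d5 is far above the D. melanogaster level in all 5 hybrids (84.8 to 153.5 FPKM, against 2.30 FPKM), and bnk and Sxl vary widely within a cross.

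Cyp6d5 (3R:9854950-9857205), a cytochrome P450 gene, was the one not called by mother. It had 0.09 to 7.51 FPKM over the *D. melanogaster* slices (median 1.7) and 29.7 to 1236 FPKM over the *D. simulans* slices (median 57.7). Mel-mother hybrids had 100.6, 84.8 and 108.6 FPKM and sim-mother hybrids 143.4 and 153.5 FPKM (limma log2 -0.60 ± 0.27 SE, adjusted p = 0.157), so the crosses did not overlap but the difference did not pass the threshold. The *D. simulans* parent averaged 159.2 FPKM. Within the hybrids the *D. melanogaster* allele was lower in every embryo, with log2 ratios of the *D. melanogaster* to the *D. simulans* allele of -5.31, -4.85 and -5.16 in mel-mother hybrids and -5.28 and -5.69 in sim-mother hybrids (limma mean -5.29 ± 0.15 SE, adjusted p = 0.000515). Cyp6d5 lies inside the longer gene model of rdx, whose means in the parents were 43.5 and 41.3 FPKM. CG16758 had a like allele ratio (-5.02 ± 0.32 SE, adjusted p = 0.00241), but its level also differed by mother, at 28.2, 36.4 and 11.9 FPKM against 88.8 and 71.5 FPKM (adjusted p = 0.0175).

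Over all genes, the allele ratio in hybrids was tested in 4825 genes with ASE (allele-specific expression) values in at least 3 slices of every hybrid, averaged over the directions of the cross. The *D. melanogaster* allele was higher in 986 of them (20.4%) and the *D. simulans* allele in 424 (8.79%), and the median log2 ratio of all genes tested was 0.22. Among the 4398 of these that are expressed genes as defined above, the shares were 20% and 8.84%. A ratio was available for 427 of the genes at least 2-fold higher in the *D. melanogaster* parent, of which 247 (57.8%) had a higher *D. melanogaster* allele and 3 a higher *D. simulans* allele. It was available for 745 of the genes at least 2-fold higher in the *D. simulans* parent, of which 273 (36.6%) had a higher *D. simulans* allele and 16 a higher *D. melanogaster* allele. With each embryo centred on its median gene, the *D. simulans* allele was higher in 1086 genes and the *D. melanogaster* allele in 878, and 506 of the 745 genes were called. Without sim-mother replicate 1 or 2 the calls among the 427 genes fell to 74 or 77 and those among the 745 genes to 70 or 69, and without mel-mother replicate 1 they were 131 and 144. Autosomal alleles lay on the mother's side in all 5 hybrids, with a median share of 77.1 to 87.2% *D. melanogaster* alleles in mel-mother hybrids and of 23.9 and 24.4% in sim-mother hybrids. The 4825 genes include 144 X-linked genes. Their alleles were almost all maternal in mel-mother replicate 3 and sim-mother replicate 2, with medians of 99.9 and 0.17% *D. melanogaster* alleles.

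The genes past 2-fold fell into classes by these tests. Among the 427 genes on the *D. melanogaster* side with an allele ratio, 147 were called by mother and by allele, 57 by mother only, 100 by allele only and 123 by neither. Among the 745 genes on the *D. simulans* side the counts were 115, 176, 158 and 296. A gene called by neither test is not shown to be equal.

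Subunit genes of the proteasome, the complex that degrades ubiquitin-tagged proteins, passed 2-fold about as often as other genes. Of 32 subunit genes, 5 were at least 2-fold higher in *D. melanogaster* and 5 in *D. simulans*, beside 13.7 and 18.3% of all genes, and the median log2 ratio was 0.26 against -0.11 for all genes. Rpt4 (X:6183503-6185278), an ATPase of the regulatory cap, had 396.7 to 841.5 FPKM over the *D. melanogaster* slices (median 607.1) and 19.1 to 79.9 FPKM over the *D. simulans* slices (median 26.6). It had 576.4, 564.7 and 409.3 FPKM in mel-mother hybrids and 26.3 and 14.9 FPKM in sim-mother hybrids (limma log2 4.62 ± 0.32 SE, adjusted p = 1.3e-05). The gene model of wuho overlaps it and had 33.3 and 15 FPKM in the parents. The core subunit gene Prosalpha4 had means of 759.6 and 132.4 FPKM, Prosalpha7 979 and 355.1 FPKM, Rpt6 209.9 and 76.9 FPKM, and Rpt3R, a paralog of Rpt3, 15.9 and 0.244 FPKM.

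In the other direction, the lid subunit gene Rpn7 (3R:18286384-18287776) had 28.7 to 67 FPKM over the *D. melanogaster* slices (median 39.2) and 222.4 to 403 FPKM over the *D. simulans* slices (median 295.1). The slices of these embryos did not overlap. Rpn7 had 47.9, 62.1 and 31.8 FPKM in mel-mother hybrids and 153 and 216.5 FPKM in sim-mother hybrids. Averaged over the directions of the cross, its log2 allele ratio was -1.14 ± 0.19 SE (limma adjusted p = 0.0114). The higher allele was the mother's in each embryo, with ratios of 0.92, 0.26 and 0.69 in mel-mother hybrids and -2.49 and -3.32 in sim-mother hybrids. Rpt1, Rpn1, Rpn8 and Rpt5 had log2 ratios between the parents of -1.23, -1.32, -1.51 and -1.45. Other gene models overlap Rpt1 (CG17985, 52.3 and 25.2 FPKM in the parents), Rpn8 (slik, 17.8 and 11.8 FPKM) and Rpt5 (Hrd3, 7.94 and 13.1 FPKM). CG17985 was past 2-fold in the direction opposite to Rpt1. Among the hybrids, 5 subunit genes were higher and 4 lower in mel-mother hybrids. Of the 10 subunit genes past 2-fold only Rpt5 missed that call (adjusted p = 0.0612).

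Among genes of hybrid incompatibility and heterochromatin, rhi (2R:13515996-13521021), which encodes the HP1 homolog Rhino that marks piRNA clusters, had 66.9 to 169.5 FPKM over the *D. melanogaster* slices (median 143.9) and 10.4 to 22.9 FPKM over the *D. simulans* slices (median 16.6). It had 109.6, 243.7 and 250 FPKM in mel-mother hybrids and 11 and 20.9 FPKM in sim-mother hybrids (limma log2 3.54 ± 0.42 SE, adjusted p = 0.000325). The hybrid incompatibility gene Hmr had means of 37.9 and 15.4 FPKM and was also higher in mel-mother hybrids (adjusted p = 0.0139). Of the 9 measured genes of this list, 2 were at least 2-fold higher in *D. melanogaster* and 1 in *D. simulans*, beside 13.7 and 18.3% of all genes, too few to set the list apart. The gene higher in *D. simulans*, vfl, encodes the zygotic genome activator Zelda and had means of 28.4 and 58.6 FPKM. Its log2 ratio of -1.02 was just past 2-fold and was -0.95 with slices scaled by their median ratio, -0.94 by the median over slices and -0.88 within library batch 2. aub, a piRNA-binding Argonaute, had means of 26 and 6.74 FPKM, with 44.5, 22.9 and 46.7 FPKM against 13.4 and 9.08 FPKM in the hybrids by mother (limma adjusted p = 0.011). Averaged over the directions of the cross, its log2 allele ratio was 1.62 ± 0.25 SE (limma adjusted p = 0.00943). The higher allele was the mother's in each embryo, with ratios of 6.79, 6.53 and 7.67 in mel-mother hybrids and -4.29 and -3.24 in sim-mother hybrids.

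Among detoxification genes, GstS1 (2R:12980751-12987006), a glutathione S-transferase, had 38 to 88.6 FPKM over the *D. melanogaster* slices (median 67.2) and 402.3 to 554.6 FPKM over the *D. simulans* slices (median 453.2). Its levels were 96.8, 114.8 and 97.2 FPKM in mel-mother hybrids and 420.7 and 401 FPKM in sim-mother hybrids (limma log2 -1.99 ± 0.26 SE, adjusted p = 0.000629). Adh, the alcohol dehydrogenase gene, went the other way, with means of 13.1 and 4.35 FPKM in the parents. Of the 5 measured genes of this list, 1 was at least 2-fold higher in *D. melanogaster* and 2 in *D. simulans*, and of 8 heat shock genes 2 and 3 were. Beside 13.7 and 18.3% of all genes, such small counts say little about either list. Hsp83, the cytoplasmic Hsp90 gene, had means of 495.3 and 221.9 FPKM, and it was higher in mel-mother hybrids (adjusted p = 0.00718), while Hsp23 had 37.5 and 143.3 FPKM and was lower (adjusted p = 0.0174).

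Among maternal patterning and germ plasm genes, several differed at the posterior pole. Of 10 measured genes, 3 were at least 2-fold higher in *D. melanogaster* and 4 in *D. simulans* (13.7 and 18.3% of all genes). The 3 were aub, cad and tor, and the 4 were nos, pgc, exu and gcl. For nos, pgc and exu the difference was concentrated in the last slices, while gcl averaged 6.34 and 21.8 FPKM without the last slice. nos, the posterior determinant, had 40.1 FPKM in the last *D. melanogaster* slice and 347.9 FPKM in the last *D. simulans* slice, and averaged 0.326 and 0.857 FPKM over the other slices. pgc, which silences transcription in pole cells, had 364.2 and 1246 FPKM in the last slice and 4.9 and 7.09 FPKM elsewhere. With the median over slices in place of the mean, the log2 ratios of nos, pgc and exu were 0.23, 0.054 and 0.81 and thus positive, and within library batch 2, which does not hold the last *D. simulans* slice, they were 0.71, 1.43 and 0.18. The level of 6 pole cell markers summed to 58.6 FPKM in the *D. melanogaster* parent and 112.2 FPKM in the *D. simulans* parent. In the hybrids the sums were 56.3 to 94.5 FPKM. The markers did not all go the same way. nos, pgc and gcl were higher in *D. simulans*, while aub was higher in *D. melanogaster* (26 and 6.74 FPKM). osk (3.53 and 3.99 FPKM) and vas (1.34 and 0.572 FPKM) were low in both. How much of the pole a slice holds was not tested, and in such bulk slices fewer cells of a type and less RNA per cell cannot be told apart. tor, the receptor of the terminal system, was higher along the whole axis, with 10.4 to 27.7 FPKM in *D. melanogaster* and 0 to 6.75 FPKM in *D. simulans*, and higher in mel-mother hybrids (limma log2 1.83 ± 0.50 SE, adjusted p = 0.0312).

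Genes listed for cellularization, only some of which are transcribed in a short burst as the membranes grow in, were mostly higher in *D. melanogaster*. Of 11 genes, 6 were at least 2-fold higher in *D. melanogaster* and 1, spag, in *D. simulans*, beside 13.7 and 18.3% of all genes, with a median log2 ratio of 1.28. slam (2L:6372388-6377284), which organises the advancing membrane front, had 417 to 1252 FPKM over the *D. melanogaster* slices (median 925.4) and 18 to 335.3 FPKM over the *D. simulans* slices (median 112.5). bnk (3R:27019084-27020111), which restrains the actin network at that front, had 160.9 to 1021 FPKM (median 362.8) and 14.1 to 46 FPKM (median 27.1). Sry-alpha had means of 1351 and 284.5 FPKM and nullo 14.2 and 1.27 FPKM. Embryos of the same cross also differed in these genes. bnk had 315.9, 125.3 and 925.2 FPKM in mel-mother hybrids and 301.4 and 91.9 FPKM in sim-mother hybrids (adjusted p = 0.401), and the allele ratios of bnk, slam and Sry-alpha were 0.02, -0.30 and 0.15 on the log2 scale, none past the threshold (adjusted p = 0.919, 0.173 and 0.507).

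Segment polarity genes, which come on later in the cascade, lay on the other side. Of 7 measured segment polarity genes, 5 were at least 2-fold higher in *D. simulans* and 0 in *D. melanogaster* (background 18.3 and 13.7%), with a median log2 ratio of -1.29. ci, the effector of Hedgehog signalling, had 23.2 to 64.1 FPKM in *D. melanogaster* and 65.5 to 154.1 FPKM in *D. simulans*. wg, the Wnt ligand, had means of 13.8 and 38.3 FPKM, gsb 1.41 and 15.8 FPKM, mid 0.634 and 12.5 FPKM and hh 1.65 and 5.37 FPKM. The Hox genes Dfd (2.24 and 11 FPKM) and Antp (2.80 and 14.8 FPKM) were higher in *D. simulans* as well. So was stg, the Cdc25 phosphatase that starts the next division, with 13.2 and 45.7 FPKM, the only 1 of 13 measured cell cycle genes past 2-fold (median log2 ratio 0.12). Of the 3 measured markers of later embryos, Dll (2.36 and 10.1 FPKM) passed 2-fold, while grh had 11.4 and 22.5 FPKM and elav 15.7 and 11.5 FPKM. In the hybrids none of the 5 segment polarity genes, Dfd, Antp and stg was called by mother (adjusted p of 0.11 to 0.786). The summed level of 4 cellularization markers was 2695 FPKM in the *D. melanogaster* parent and 457.2 FPKM in the *D. simulans* parent, and that of the segment polarity genes 117 and 277.7 FPKM. Over the 5 hybrids, the cellularization sums ran from 788.2 to 3695 FPKM and the segment polarity sums from 106.6 to 229.7 FPKM. The part of exact stage in these differences was not tested.

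Dorsoventral genes, which divide the circumference of the embryo, were higher in *D. melanogaster* about as often as other genes. Of 24 measured genes, 3 were at least 2-fold higher in *D. melanogaster* and 7 in *D. simulans*, beside 13.7 and 18.3% of all genes, with a median log2 ratio of -0.31. The 3 were scw, a BMP ligand, with means of 22.2 and 4.09 FPKM, tsg, a secreted BMP regulator, with 85.9 and 30.8 FPKM, and zen, a dorsal homeobox gene, with 88.5 and 25.8 FPKM. tsg was also higher in mel-mother hybrids (adjusted p = 0.0376), and the *D. melanogaster* allele of scw was higher in hybrids (log2 1.00 ± 0.13 SE, adjusted p = 0.00645). On the *D. simulans* side, pnr, a GATA factor of the dorsal ectoderm, had 0.672 and 12.1 FPKM, tin, the heart homeobox gene, 1.26 and 6.9 FPKM, and ind, a neuroectodermal homeobox gene, 10.5 and 54.8 FPKM. None of these 3 was called by mother (adjusted p = 0.503, 0.476 and 0.232), and ind ranged from 0.605 to 27.9 FPKM among mel-mother hybrids alone.

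X-linked genes were shifted towards *D. melanogaster*. The median log2 ratio was 0.23 for 900 X-linked genes and -0.17 for 4686 genes on the autosomal arms, a difference of 0.40, and the arms 2L, 2R, 3L and 3R had medians of -0.15, -0.22, -0.13 and -0.18. On the X, 21% of genes were at least 2-fold higher in *D. melanogaster* and 13% in *D. simulans*, against 12.1 and 19.4% on the autosomal arms. The same difference of medians was -0.01, 0.06 and 0.03 in the pairs of mel-mother hybrids and 0.23 in the pair of sim-mother hybrids. It was 0.43 within library batch 2 and 0.37 within batch 3. The parents were listed as of different sex, so sex and species cannot be told apart here.

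**Figure D3:**
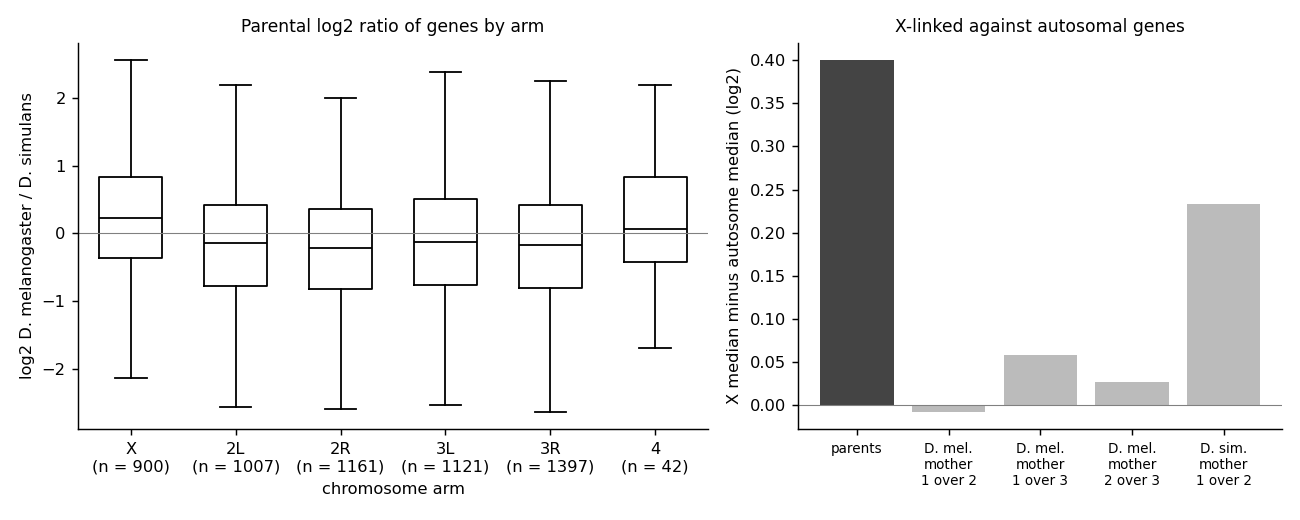
Left, log2 ratio of the D. melanogaster to the D. simulans parent for genes of each chromosome arm (line, median; box, quartiles; whiskers, values within 1.5 times the box height, with points beyond not drawn). Right, the median log2 difference of X-linked genes minus that of genes on the autosomal arms, for the parents (0.40) and for 4 pairs of hybrids of the same cross (at most 0.23). The X has the highest median of the arms drawn.

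Sxl (X:6968583-6992089), the master switch of female development, had 121.2 to 345.9 FPKM over the *D. melanogaster* slices (median 255.4) and 22.3 to 50.9 FPKM over the *D. simulans* slices (median 31.4). It had 338.3, 216 and 12 FPKM in mel-mother hybrids and 277.3 and 21.5 FPKM in sim-mother hybrids, so both crosses held a high and a low embryo. The hybrids with 12 and 21.5 FPKM were those in which X-linked alleles were almost all maternal, with a median share of *D. melanogaster* alleles of 99.9 and 0.17% over 144 X-linked genes. In the other 3 hybrids it was 94.8, 92.6 and 8.94%. sisA, an X-linked activator of Sxl, had means of 260.9 and 107.5 FPKM in the parents. Of 17 measured genes of sex determination and dosage compensation, 3 (Sxl, sisA and os) were at least 2-fold higher in *D. melanogaster* and 0 in *D. simulans*, beside 13.7 and 18.3% of all genes. All 3 are X-linked, and of all X-linked genes 21% were at least 2-fold higher in *D. melanogaster*.

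Patterns along the axis were compared by EMD (earth mover's distance), the average distance that a normalised pattern must be moved to match another, in percent of embryo length. Of 3765 genes with at least 10 FPKM in both species, 310 (8.23%) had an EMD of at least 5% between the parents, against 2.23 to 3.51% in the 4 hybrid pairs. The median EMD was 2.09% between the parents and 1.49 to 1.89% in the pairs. For 1324 genes (35.2%) the parents were further apart than any pair, which a part of the genes would meet without any species difference. Sections differed at least 2-fold in both species for 98 genes (2.6%), in *D. melanogaster* only for 55 and in *D. simulans* only for 55 (1.46% each). Of the 98 genes, 78 (79.6%) were highest in the same section in both species, 38 of them in the anterior, 19 in the middle and 21 in the posterior section. Such patterned genes thus mostly kept their broad region.

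Of the 12 gap and terminal genes with at least 10 FPKM in both species, 10 had an EMD of at least 5%, and of the 8 pair-rule genes 6 had, beside 8.23% of all 3765 genes. Sections differed 2-fold in both species for only 98 of the 3765 genes, so they are no like background for patterned genes. In level, of 13 gap and terminal genes, cad alone was at least 2-fold higher in *D. melanogaster* (18.9 and 6.97 FPKM) and pdm2 alone in *D. simulans* (14.8 and 35.7 FPKM), although pdm2 had a log2 ratio of 0.05 by the median over slices. Of 11 pair-rule genes, Ten-m, sob and drm were at least 2-fold higher in *D. simulans* and 0 in *D. melanogaster*, beside 18.3 and 13.7% of all genes. Of the others, gt had means of 173.4 and 89.4 FPKM and prd 64.4 and 109.3 FPKM, while hb had means of 62.5 and 45.4 FPKM, Kr 148 and 148.5 FPKM, tll 107.9 and 118.8 FPKM, eve 140.6 and 188.4 FPKM, ftz 173.6 and 192.8 FPKM and h 80.9 and 81.2 FPKM.

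Many domains of these genes lay further towards the posterior in *D. melanogaster*. Kr, the central gap gene, peaked at 53.7% of the length from the anterior end in *D. melanogaster* and at 46.3% in *D. simulans*. gt peaked at 35.2 and 27.8%, and the head stripe of slp1 at 24.1 and 16.7%. The first position with at least 50% of the highest level was at 38.9 and 31.5% for ftz, at 31.5 and 24.1% for opa and at 31.5 and 27.8% for eve. Over 20 such genes this position was more posterior in *D. melanogaster* for 15, equal for 3 and more anterior for 2, with a median difference of 7.4% of the length. The last such position was more posterior in *D. melanogaster* for 12, equal for 4 and more anterior for 4. The peak, taken like these positions on a rolling mean of 3 slices, was more posterior for 10, equal for 3 and more anterior for 7. Kr also had 136.6 FPKM in the posterior section of *D. simulans*, against 6.3 FPKM there in *D. melanogaster*.

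**Figure D4:**
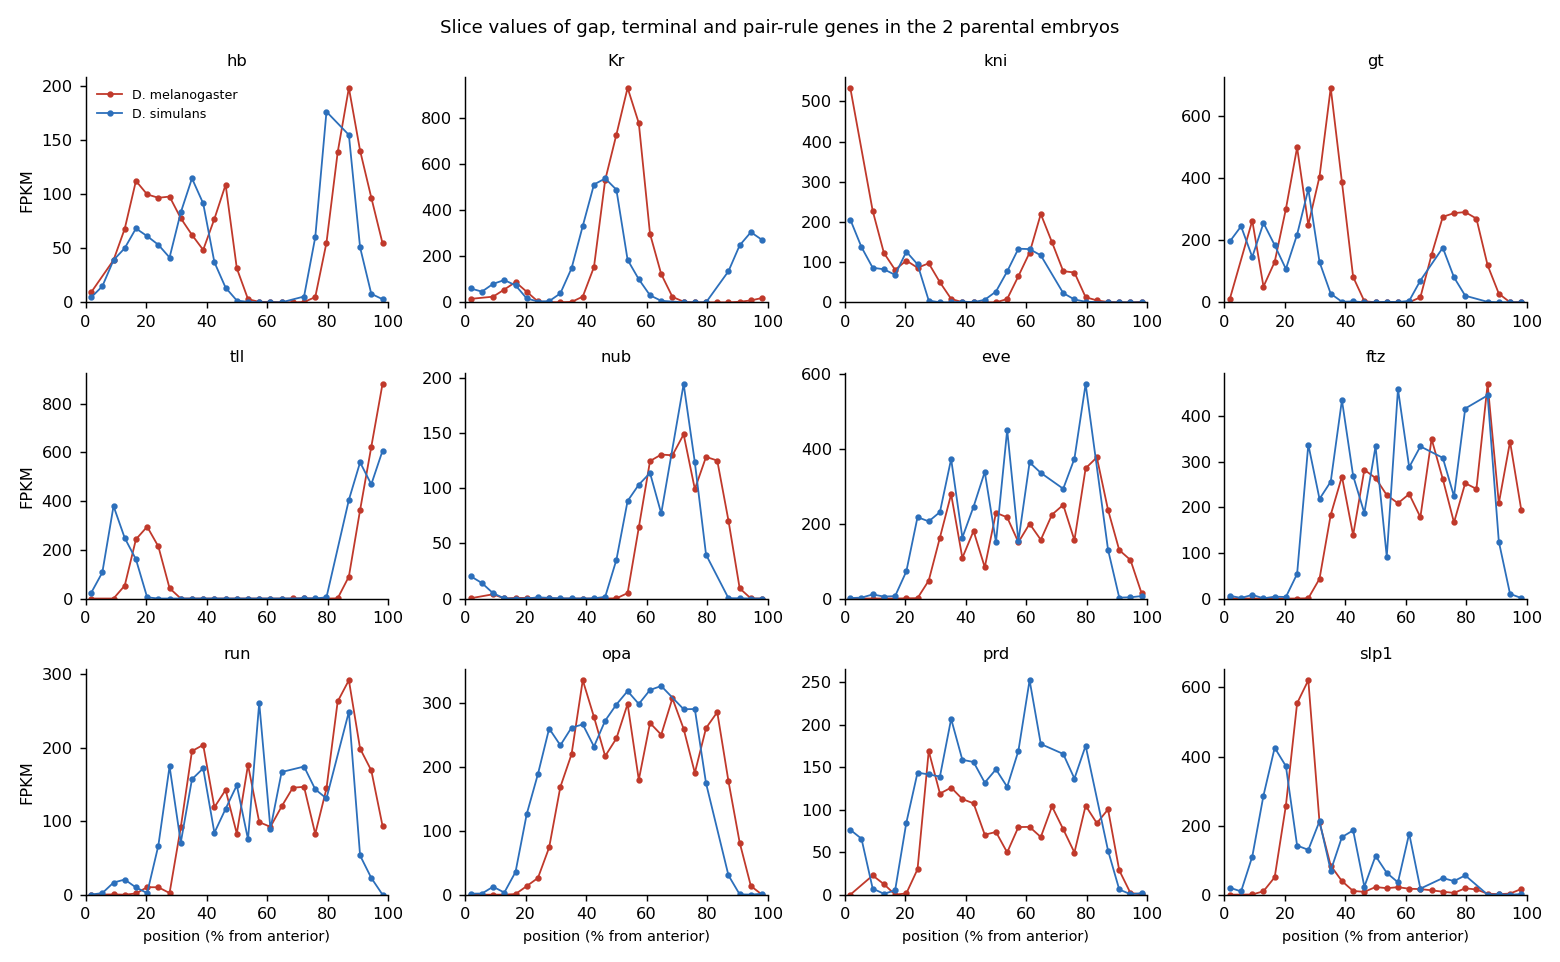
FPKM in each slice (y axis) against position in percent of the length from the anterior end (x axis) for gap, terminal and pair-rule genes, in the D. melanogaster embryo (red) and the D. simulans embryo (blue). Many D. simulans curves lie to the left of the D. melanogaster curves, as for Kr, with peaks at 53.7% in D. melanogaster and 46.3% in D. simulans.

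Moving the *D. simulans* patterns towards the posterior made the embryos more alike. The median EMD of the 20 genes was 7.14% as numbered, 4.56% after a move by 1 slice (3.7% of the length) and 5.95% after a move by 2 slices, and moves towards the anterior raised it to 10.5% or more. Of the 20 genes, 15 had their smallest EMD after a move towards the posterior, 5 with no move and 0 after a move towards the anterior. The same held for mel-mother hybrid replicate 2, with the same counts of 15, 5 and 0 genes, whose median EMD to the *D. melanogaster* parent was 5.72%, and 2.91% after a move by 1 slice. For mel-mother replicates 1 and 3 and sim-mother replicate 1 no move gave a smaller median, although sim-mother replicate 1 had 10 genes with their smallest EMD after a posterior move and 1 after an anterior move. For sim-mother replicate 2 the median was 4.04%, and 3.73% after a move by 1 slice to the posterior. Over all 3765 genes, 241 had an EMD of at least 5% after a move by 1 slice (6.4%) and 260 after a move by 2 slices (6.91%). The part of where the cutting of each embryo began was not tested.

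Some genes differed in which domains they showed. ImpE2 (3L:3510974-3512681), an ecdysone-inducible gene, had an EMD of 70.8%, the largest of the 3765 genes. Its level was 158.4 FPKM in the anterior and 0.1 FPKM in the posterior section of the *D. melanogaster* embryo, and 32.5 and 169.2 FPKM in those of the *D. simulans* embryo, so a posterior cap was present in *D. simulans* only. The cap held the last 4 *D. simulans* slices, with 26.6, 232.6, 339.4 and 585.6 FPKM, where the *D. melanogaster* slices had at most 0.81 FPKM. The hybrids resembled *D. melanogaster*. Their EMD to the *D. melanogaster* parent was 2.2, 8.6 and 1.5% in mel-mother hybrids and 6.8 and 10% in sim-mother hybrids, against 60.8 to 70.3% to the *D. simulans* parent. Their posterior section had 4.02, 7.86 and 0.032 FPKM in mel-mother hybrids and 26.2 and 13.8 FPKM in sim-mother hybrids.

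Sec61beta (2R:10506276-10507186), a subunit of the channel that moves proteins into the endoplasmic reticulum, had 309 FPKM in the anterior and 50.8 FPKM in the posterior section of *D. melanogaster*, but 271.9 and 298.5 FPKM in those of *D. simulans*. The *D. simulans* embryo was thus nearly even and the *D. melanogaster* embryo was high only at the front. Here hybrids followed the mother. The EMD to the *D. melanogaster* parent was 4.9, 5.1 and 8.4% in mel-mother hybrids and 19 and 19.8% in sim-mother hybrids. The level in the hybrids differed by mother (limma log2 -1.40 ± 0.31 SE, adjusted p = 0.0112). Averaged over the directions of the cross, the log2 allele ratio was not called (limma -0.10 ± 0.13 SE, adjusted p = 0.616). The higher allele was the mother's in each embryo, with ratios of 1.33, 1.12 and 1.33 in mel-mother hybrids and -1.27 and -1.64 in sim-mother hybrids. Hsp83 also followed the mother. Its section means were 678, 358.6 and 469.6 FPKM from anterior to posterior in *D. melanogaster*, and 490.5, 45.6 and 103.4 FPKM in *D. simulans*. They lay 1.5, 1.1 and 4.4% from the *D. melanogaster* pattern in mel-mother hybrids and 20 and 19.2% in sim-mother hybrids.

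**Figure D5:**
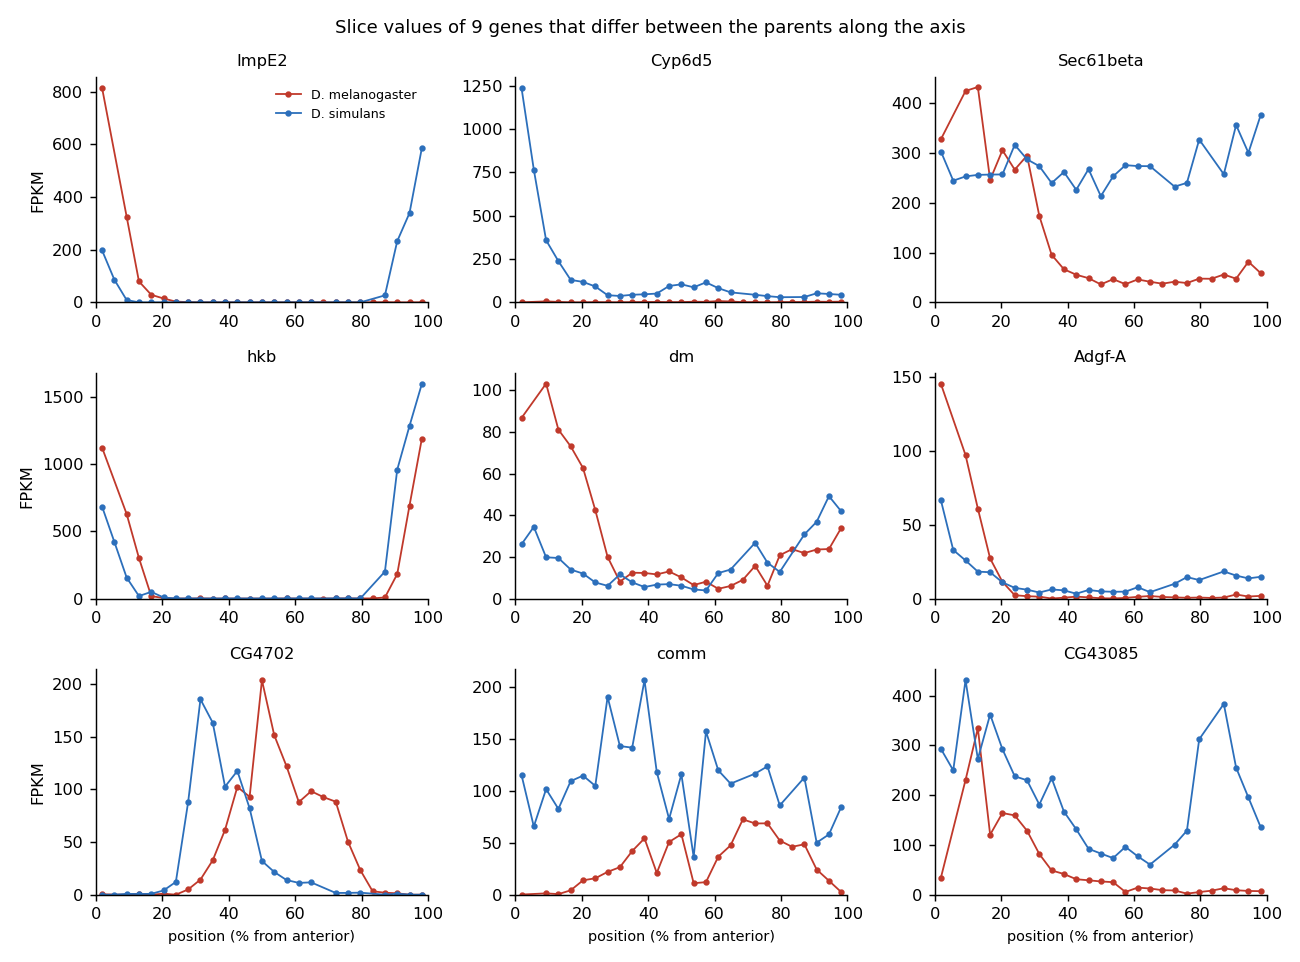
FPKM in each slice (y axis) against position in percent of the length from the anterior end (x axis) for 9 genes, in the D. melanogaster embryo (red) and the D. simulans embryo (blue). All but Cyp6d5 have large pattern differences. Cyp6d5 differs in level and was under the 10 FPKM needed in both species for the pattern comparison. ImpE2 has a posterior cap only in D. simulans, Cyp6d5 is near 0 throughout D. melanogaster, and Sec61beta is high only at the anterior in D. melanogaster.

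Contrasts between the ends of the embryo were measured next. The log2 ratio of *D. melanogaster* to *D. simulans* was at least 1 higher in the anterior than in the posterior section for 47 genes (1.25%) and at least 1 lower for 44 (1.17%), 2.42% in all. Towards the anterior, the ratios of ImpE2 were 2.25 and -7.26 in the anterior and posterior sections, those of Adgf-A, a secreted adenosine deaminase, 1.01 and -2.85, and those of CG43085 -0.85 and -4.64. CG43085 (3L:17638586-17639837) had 156.6 FPKM in the anterior and 7.7 FPKM in the posterior section of *D. melanogaster*, against 283.2 and 215.8 FPKM in *D. simulans*. Its *D. simulans* allele was higher in hybrids (log2 -2.67 ± 0.15 SE, adjusted p = 0.00241). CG12986 had 3.50 and -0.20, but its level came almost only from the end slices, and within library batch 3 its log2 ratio over the whole embryo was -1.60 rather than 1.06.

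Towards the posterior, CG4702 (3R:7947305-7953923) had ratios of -3.18 in the anterior and 3.99 in the posterior section. Its section means were 2.7, 105.9 and 29 FPKM in *D. melanogaster* and 32.4, 61.8 and 0.9 FPKM in *D. simulans*. All 5 hybrids lay nearer to the *D. melanogaster* pattern (EMD of 2.6 to 7.8%) than to the *D. simulans* pattern (8.9 to 14.2%). comm, which controls midline crossing of axons later in development, had -3.32 and -1.02, with 10.5 and 114.1 FPKM in the anterior sections. ftz (-3.45 and 0.34) and nub (-1.69 and 0.62) are genes whose domain borders were displaced as above. After a move of the *D. simulans* pattern by 2 slices the EMD of ftz was 1.21% in place of 8.32%, and that of nub 2.97% in place of 7.72%, while ImpE2 and Sec61beta were at 42.4 and 22.9%. Slices moved past the end leave the comparison, and after 3 slices, with the *D. simulans* cap mostly outside it, the EMD of ImpE2 was 5.8%. CG12986 and hkb were at 12 and 11% after a move by 1 slice.

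The terminal gene hkb and dm, the Myc gene, were also among the 6 genes with the largest EMD. hkb had 260 and 230.8 FPKM in the anterior and posterior sections of *D. melanogaster* and 149 and 578.6 FPKM in those of *D. simulans*. The posterior section of *D. simulans* lacked values for slices 19 and 23, which can raise its mean for a gene confined to the pole. dm had 59.6 and 19.8 FPKM against 16.8 and 30.8 FPKM. In the anterior section dm had 71, 58.6 and 47.3 FPKM in mel-mother hybrids and 79.3 and 18.9 FPKM in sim-mother hybrids, and in the posterior section 27.3, 34.1 and 20.6 FPKM and 56.7 and 18.2 FPKM. The mel-mother hybrids lay nearer to the *D. melanogaster* pattern (EMD of 3.57, 8.94 and 4.55%, against 23.3, 16.7 and 21.8% to *D. simulans*), and the sim-mother hybrids nearer to the *D. simulans* pattern (13.6 and 18% to *D. melanogaster*, against 11.8 and 7.32%). Among 17 dorsoventral genes with at least 10 FPKM in both species, 12 had an EMD of at least 5%, beside 8.23% of all 3765 genes. Those 3765 genes are no like background, as sections differed 2-fold in both species for only 98 of them. After a move of the *D. simulans* pattern by 2 slices, the EMD of Doc3, zen, ind and tsg was 2.01, 3.14, 2.25 and 2.42%. Without a move it was 12, 7.59, 5.68 and 5.27%. Doc2 was at 11% without a move and at 8.46% after it. Over the 310 genes with that distance, the share nearer to the *D. melanogaster* pattern was 64.5, 45.8 and 65.2% in mel-mother hybrids and 40.0 and 49.4% in sim-mother hybrids. All 5 hybrids were nearer to *D. melanogaster* for 38 genes and all 5 nearer to *D. simulans* for 27.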

How the data were processed

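RNA was sequenced from 14 µm cryoslices of single embryos as poly-A libraries (SMART-seq2). The FPKM values were made by the authors with STAR 2.4.2a and Cufflinks 2.2.1 on *D. melanogaster* release 5.57 with species-specific bases masked. The allele count per gene and the ASE score, (simulans - melanogaster) / (simulans + melanogaster), are as deposited by the authors. Reads were demultiplexed with CASAVA 1.8.2. The joint table repeats the single files within 0.005 FPKM in 51 parental slices. A total of 27 columns of other samples were not used.

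Levels are means over slices. Ratios are log2 with 1 FPKM added. EMD was computed on patterns with 1 FPKM added and scaled to a sum of 1, with the missing slices, 1 in *D. melanogaster* and 2 in *D. simulans*, interpolated. Hybrids were tested with limma 3.58.1 (R 4.3.3) on embryo means, checked on simulated data, with Benjamini-Hochberg adjustment. Their p-values measure the spread between these embryos. Other computations used Python 3.11.15, pandas 2.3.3 and numpy 2.4.6. Named genes are the 12 with the largest ratio in each direction among those of 1 sign in all 3 sections, the 6 with the largest EMD, the 4 in each direction with the largest contrast between ends, listed genes past 2-fold, gap and pair-rule genes and the 5 most abundant. CG1665 and the examples for position were chosen after their values were seen. Genes and lists were chosen with earlier results of these data known.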

Additional observations from a re-analysis of the deposited data

How the results depend on the processing

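The share of genes past 2-fold between the parents was close to 31.9% within each library batch, at 31.4% in batch 2 and 33.3% in batch 3. With 5 FPKM added, 674 genes were at least 2-fold higher in *D. simulans* and 253 passed 4-fold. With at least 5 FPKM in both species, 1074 of 4686 genes (22.9%) passed 2-fold (475 higher in *D. melanogaster*, 599 in *D. simulans*) and 206 passed 4-fold. With at least 20 FPKM in either species, 1112 of 3807 genes (29.2%) passed 2-fold, 591 of them higher in *D. simulans*, and 365 passed 4-fold. Without overlapping gene models, an alternative added after seeing the data, 1005 of 3199 genes (31.4%) passed 2-fold. Of these, 437 were higher in *D. melanogaster* and 568 in *D. simulans*, and 330 passed 4-fold. With at least 20 FPKM in both species, 179 of 2771 genes (6.46%) had an EMD of 5% or more. With the first and last 20% of the length in place of sections, 197 of 3765 genes had end ratios at least 1 apart. Single genes turned over in sign. By the median over slices the log2 ratios of nos, pgc, exu, pdm2, oc and GstD1 were 0.23, 0.054, 0.81, 0.045, -0.067 and 0.40. Within batch 2 those of nos, pgc and exu were 0.71, 1.43 and 0.18, and within batch 3 that of CG12986 was -1.60. The cause was not tested.

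The tests by mother over all 13577 genes called 457 genes (207 higher, 250 lower with a *D. melanogaster* mother), with 154 and 152 in the parental direction. Leaving out 1 hybrid, 531 to 1159 genes were called by mother (263 to 561 higher, 268 to 598 lower), with 248 to 473 and 244 to 500 in the parental direction. For the allele ratio, 222 to 1752 genes were called (143 to 1367 with the *D. melanogaster* allele higher, 78 to 598 with the *D. simulans* allele higher), with 74 to 304 and 69 to 351 in the parental direction. Centred on the median gene of each hybrid, which was added after seeing the data, 1086 genes had a higher *D. simulans* allele and 506 did so in the parental direction. Without X-linked genes, also added after seeing the data, 1162 of 4681 genes had a higher *D. melanogaster* allele and 490 a higher *D. simulans* allele. In the parental direction there were 273 and 309. With the replicate number as a block, 398 genes were higher and 443 lower by mother, and 1593 had a higher *D. melanogaster* allele. The labels do not pair hybrids by number, and deviations of same-numbered hybrids correlated at 0.16 and 0.06. In the hybrid pairs, 5.92 to 15.2% of genes between 5 and 10 FPKM passed 2-fold, and 5.79 to 16.2% of those between 10 and 50 FPKM. The part of depth in genes near 5 FPKM was not tested, and no species comparison here has a replicate embryo.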

Other observations

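Genes annotated to heterochromatin scaffolds, which hold sequence near the centromeres, stood further towards *D. melanogaster* than any chromosome arm. Of 29 such genes, 11 were at least 2-fold higher in *D. melanogaster* and 2 in *D. simulans*, beside 12.1 and 19.4% of genes on the autosomal arms, with a median log2 ratio of 0.36. The scaffolds are small and were not alike. The median was -0.01 over 5 genes of 3RHet, 0.51 over 10 of 3LHet and 0.76 over 8 of 2RHet. It was 0.49 over 4 genes of XHet and 0.98 over 2 of 2LHet. The part of mapping to the *D. melanogaster* genome was not tested. Chromosome 4, which is small and largely heterochromatic, had a median of 0.06 over 42 genes, with 8 and 5 genes past 2-fold.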
